A study of Homo sapiens with 12 samples.

Results

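MKI67, TOP2A and the 8 genes of the condensin complexes were followed by RNA sequencing in H520, an established cell line from a human squamous cell carcinoma of the lung. The 10 genes were chosen by name: MKI67, TOP2A, SMC2, SMC4, NCAPD2, NCAPD3, NCAPG, NCAPG2, NCAPH and NCAPH2. They are 10 of the 58174 genes in the deposited table, and all 10 passed the filter on low counts that left 20612 genes for testing. There were 4 groups of 3 libraries at 72 h: cells given BLU9931 (1 µM) together with palbociclib (1 µM), here called the combination, cells given palbociclib alone (1 µM), cells given BLU9931 alone (1 µM), and control cells. Palbociclib inhibits the G1 kinases CDK4 and CDK6, and BLU9931 blocks the kinase of the fibroblast growth factor receptor FGFR4. All groups are of a single line, the labels do not say what the controls received, and separate cultures are not stated for replicate libraries, so p-values measure the spread between these libraries, which may be technical.

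Library totals lay between 21730722 and 35786607 counts. Palbociclib library 3 and control library 1 stood apart from their group mates with a pattern that followed GC content, and its size in each gene is given with the results. Of the 8 squamous and basal markers, SOX2 was at 342 to 443 TPM (transcripts scaled to gene length and to a fixed total), while the other 7, among them TP63 and KRT5, reached at most 1.31 TPM in any library. The summed level of 4 neuroendocrine markers was 25 to 31 TPM in combination libraries, 15.9 to 22.4 in palbociclib, 24 to 26.4 in BLU9931 and 15.9 to 19.8 in control libraries. It was led by INSM1 (mean 25.1 TPM in combination and 14.8 in control cells), with NEUROD1 at or near 0. SYP (2.23 and 2.96 TPM) and CHGA (0.344 and 0.435 TPM) averaged lower in combination than in control cells. The part of these markers in the results below was not tested. Leukocyte markers summed to at most 1.23 TPM.

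Ki-67, the protein of MKI67, coats mitotic chromosomes and keeps them apart from each other, and it is the proliferation marker most used in tumour pathology. Topoisomerase IIα, from TOP2A, passes one DNA duplex through another and so removes the tangles between sister chromatids. Condensins are rings of the ATPases SMC2 and SMC4 closed by a kleisin (NCAPH or NCAPH2) that carries a pair of HEAT-repeat subunits (NCAPD2 and NCAPG in condensin I, NCAPD3 and NCAPG2 in condensin II), and they extrude chromatin loops that shorten the chromosome. Condensin II is nuclear throughout the cell cycle, whereas condensin I meets the chromosomes after the nuclear envelope has broken down. Many mitotic genes are repressed in resting cells through a promoter element called CHR, bound by the DREAM complex, often with a CCAAT box beside it.

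The promoter windows of these genes are shown as a description, and their part in the changes below was not tested. RefSeq windows (build GRCh38.p14) of 300 bases, 250 before the transcription start and 50 from it on, were at hand for 9 of the 10 genes. They came to 12 windows, since SMC2, SMC4 and NCAPD3 each have a pair of starts. Both strands were searched for the CHR, taken as TTTGAA with the variant that reads TTCGAA, and for the CCAAT box. The E2F core was taken as TTCGCGC, as the form written TTGGCGC, or as a form with more cytosines that reads TTCCCGC. CHR letters stood in 8 of the 9 genes and in 8 of the 12 windows, whereas 17.4% of 14643 protein-coding genes and 16.4% of 35116 windows held them. CCAAT was found in 5 of the 9 genes (42.4% of protein-coding genes), and E2F cores in 3 of the 9 (17.9%). Below, only the windows of MKI67, TOP2A and the condensin I subunits are printed. Bases in capitals are these letters, and a match on the other strand appears as its reverse complement (ATTGG for CCAAT).
MKI67, chr10:128126374-128126673, minus strand: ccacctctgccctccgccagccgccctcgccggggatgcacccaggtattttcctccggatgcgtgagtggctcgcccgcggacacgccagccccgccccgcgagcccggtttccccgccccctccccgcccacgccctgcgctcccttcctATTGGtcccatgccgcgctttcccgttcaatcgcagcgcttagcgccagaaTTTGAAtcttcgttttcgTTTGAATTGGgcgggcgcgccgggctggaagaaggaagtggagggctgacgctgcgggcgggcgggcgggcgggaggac
TOP2A, chr17:40417847-40418146, minus strand: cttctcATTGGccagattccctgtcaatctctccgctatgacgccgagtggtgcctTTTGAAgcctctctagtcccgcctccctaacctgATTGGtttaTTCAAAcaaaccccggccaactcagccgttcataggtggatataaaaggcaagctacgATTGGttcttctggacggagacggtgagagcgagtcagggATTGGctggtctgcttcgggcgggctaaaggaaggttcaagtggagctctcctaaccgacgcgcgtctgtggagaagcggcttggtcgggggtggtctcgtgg
NCAPD2, chr12:6493852-6494151, plus strand: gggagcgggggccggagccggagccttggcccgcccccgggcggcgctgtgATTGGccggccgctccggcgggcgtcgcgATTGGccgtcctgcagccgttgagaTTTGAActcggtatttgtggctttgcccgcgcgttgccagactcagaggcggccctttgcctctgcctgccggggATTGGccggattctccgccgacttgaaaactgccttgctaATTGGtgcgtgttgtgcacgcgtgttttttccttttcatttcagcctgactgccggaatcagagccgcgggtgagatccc
NCAPG, chr4:17810729-17811028, plus strand: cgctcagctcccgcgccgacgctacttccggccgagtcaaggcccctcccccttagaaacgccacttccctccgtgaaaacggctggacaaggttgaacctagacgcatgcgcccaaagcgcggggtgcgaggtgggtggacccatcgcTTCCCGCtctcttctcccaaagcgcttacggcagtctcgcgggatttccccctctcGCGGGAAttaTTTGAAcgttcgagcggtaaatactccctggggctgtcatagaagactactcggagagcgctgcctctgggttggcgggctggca
NCAPH, chr2:96335516-96335815, plus strand: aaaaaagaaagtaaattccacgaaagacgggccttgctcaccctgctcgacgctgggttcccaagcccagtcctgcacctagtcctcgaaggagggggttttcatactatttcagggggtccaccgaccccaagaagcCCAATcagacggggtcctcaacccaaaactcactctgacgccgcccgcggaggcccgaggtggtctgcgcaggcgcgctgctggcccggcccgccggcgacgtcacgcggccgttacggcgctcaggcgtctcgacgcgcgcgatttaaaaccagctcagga
MKI67 held a pair of CHR matches, beginning 47 and 29 bases before the start, and the nearer shared its last base with a CCAAT box on the other strand. In TOP2A the 2 CHR matches began 194 and 151 bases before the start and 4 CCAAT boxes lay around them. NCAPG had its CHR match 35 bases before the start and 2 E2F cores, but no CCAAT. Among the windows not printed, the CHR match of SMC4 began 75 bases before the start. That of NCAPG2 lay wholly after the start, and those of SMC2 and NCAPD3 spanned it. NCAPH was the exception among the 9 genes, with a CCAAT box and no CHR letters. Such a match is a description of letters and was not tested as a binding site.

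Per length, the genes stood in a wide order. In combination cells NCAPD3 led with 106.5 ± 1.45 TPM, ahead of SMC4 (86.95 ± 2.45) and NCAPD2 (51.6 ± 3.69; SD, n = 3), and MKI67 was near the bottom with 10.7 ± 2.51 TPM, where its libraries overlapped those of SMC2 above it and NCAPG below it. In palbociclib cells the first 4, SMC4, NCAPD3, TOP2A and NCAPD2, each overlapped with the next, and MKI67 was at 51.1 ± 7.08 TPM. In BLU9931 cells SMC4 led with 259.9 ± 2.997 TPM and MKI67 was at 171.5 ± 8.56 TPM. In control cells SMC4 had the highest level (294 ± 52.2 TPM), ahead of TOP2A (228 ± 52.2) and NCAPD3 (210.2 ± 8.39), MKI67 was at 154 ± 10.04 TPM, and SMC2 had the lowest level (38.3 ± 10.3). Neighbours that did not overlap in control cells were NCAPD3 and MKI67, and NCAPD2 and NCAPG2. SMC2 and SMC4 pair in equal numbers in condensin, yet their mRNA levels per length lay far apart in every group.

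All 10 genes fell with the combination and all 10 fell with palbociclib alone, while none passed the test with BLU9931 alone. Changes between groups were tested on counts with edgeR's quasi-likelihood test, fitted to all 12 libraries, with Benjamini-Hochberg adjustment over the 20612 genes and a threshold of 0.05. Levels for these comparisons are CPM, counts relative to the library's TMM-adjusted total. Against control, 10 of 10 genes were lower in the combination, where 16.3% of all genes tested were lower and 15.4% higher. Against control, 10 of 10 were lower with palbociclib (10.5% of all genes), and 0 of 10 were lower or higher with BLU9931 (0.0388% lower and 0.141% higher). The median log2 change of the 10 was -1.84 in the combination, -0.95 with palbociclib and -0.10 with BLU9931, each against control, and over all genes tested it was 0.03, 0.01 and 0.00. Together the 10 genes took 0.0748 to 0.0793% of the counts of combination libraries, 0.162 to 0.182% of palbociclib, 0.348 to 0.362% of BLU9931 and 0.320 to 0.377% of control libraries. The CPM of the 3 combination libraries lay below those of the 3 control libraries for 10 of 10 genes, and for 23.5% of all genes tested. With palbociclib they did so for 10 of 10 genes as well (16.2% of all genes), and with BLU9931 for SMC2 and NCAPG (16.3%). In a bulk sample, fewer cycling cells and less RNA per cell cannot be told apart.

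**Figure D1:**
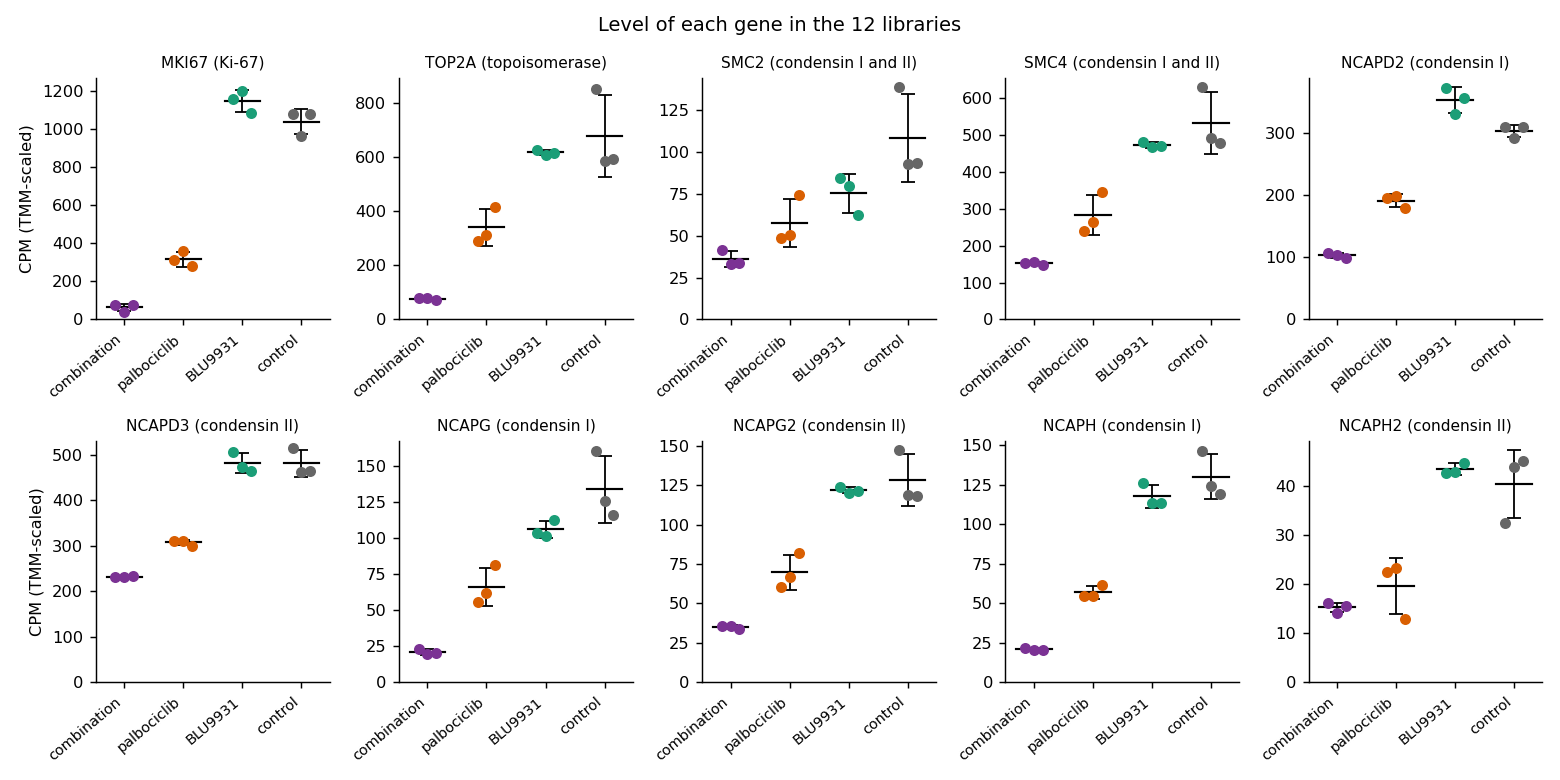
Level of each of the 10 genes (vertical axes, CPM scaled by TMM, starting at 0) in the combination, palbociclib, BLU9931 and control groups; points are libraries in the order 1 to 3, bars the mean and whiskers the SD (n = 3). In every panel the combination and palbociclib libraries lie below the control libraries, and the BLU9931 libraries lie below all control libraries for SMC2 and NCAPG.

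MKI67 had the largest fitted fall of the 10. It was at 74.6, 41.6 and 74.1 CPM in combination libraries 1 to 3, at 311, 358 and 279 CPM in palbociclib, at 1161, 1203 and 1085 CPM in BLU9931 and at 1079, 964 and 1082 CPM in control libraries. Combination library 2 was lower than its mates, and no pair of groups overlapped. The narrowest gap was that of BLU9931 libraries above control libraries, where the change did not pass the test (adjusted p = 0.702). The share of all genes so separated upward was not counted. The mean of the combination was 6.09% of the control mean and that of palbociclib 30.3%. Fitted, the log2 change against control was -4.04 ± 0.21 (SE) in the combination (16.4-fold lower, adjusted p = 2.15e-07) and -1.72 ± 0.19 with palbociclib (3.30-fold lower, adjusted p = 0.000126). Ordered by log2 change, MKI67 was the 31st lowest of 14580 protein-coding genes in the combination against control.

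In the combination TOP2A fell next furthest after MKI67, while with palbociclib alone NCAPH, NCAPH2 and NCAPG had larger changes as well. Its levels were 78.3, 78.5 and 72.3 CPM in combination libraries, 290.2, 313 and 417 CPM in palbociclib, 627, 607 and 616 CPM in BLU9931, and 851, 586 and 592 CPM in control libraries. Palbociclib library 3 and control library 1 were high within their groups, and the palbociclib and control groups still did not overlap. The log2 change against control was -3.15 ± 0.17 in the combination (8.86-fold lower, adjusted p = 3.04e-07) and -0.99 ± 0.16 with palbociclib (1.99-fold lower, adjusted p = 0.0013).

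The ATPases SMC4 and SMC2, shared by both condensins, fell less. SMC4 was at 152, 156 and 148 CPM in combination libraries, 239.8, 265 and 345 CPM in palbociclib, 481, 466 and 469.8 CPM in BLU9931 and 628, 492 and 477 CPM in control libraries. Its log2 change against control was -1.81 ± 0.14 in the combination (adjusted p = 3.17e-06) and -0.91 ± 0.14 with palbociclib (adjusted p = 0.000911). SMC2 was at 41.5, 32.9 and 33.6 CPM in combination libraries, 48.4, 50.1 and 73.9 CPM in palbociclib, 84.2, 79.6 and 62.2 CPM in BLU9931 and 138, 92.9 and 93.4 CPM in control libraries. Every palbociclib library was below every control library, with the gap narrowed by palbociclib library 3. The log2 change of SMC2 was -1.59 ± 0.21 in the combination (adjusted p = 0.000201) and -0.91 ± 0.21 with palbociclib (adjusted p = 0.0103), the palbociclib change with an adjusted p of 0.061 in a fit of the palbociclib and control libraries only. Exons of SMC4 overlap IFT80 and TRIM59 on the other strand, the use of strand in counting is not given in the sources used here, and TRIM59 was also lower in the combination (-1.26, adjusted p = 0.0356).

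Of the subunits particular to condensin I, NCAPG and NCAPH fell furthest. The kleisin NCAPH was at 21.9, 20.6 and 20.7 CPM in combination libraries, 54.8, 54.4 and 61.4 CPM in palbociclib, 126, 113 and 114 CPM in BLU9931 and 146, 124.5 and 119 CPM in control libraries. Neither the combination nor the palbociclib libraries overlapped with any other group. Its log2 change against control was -2.63 ± 0.11 in the combination, with the smallest adjusted p of the 10 (5.99e-08), and -1.19 ± 0.11 with palbociclib (adjusted p = 3.42e-05). NCAPG, a HEAT-repeat subunit, was at 23.3, 19.8 and 20.3 CPM in combination libraries, 55.5, 61.6 and 81.1 CPM in palbociclib, 103, 102 and 113 CPM in BLU9931 and 160.5, 126 and 116 CPM in control libraries. It fell 6.35-fold in the combination (log2 change -2.67 ± 0.17, adjusted p = 8.21e-07) and 2.03-fold with palbociclib (-1.02 ± 0.16, adjusted p = 0.00117). NCAPG overlaps LCORL on the other strand, and LCORL was lower in the combination as well (-1.67, adjusted p = 0.00292).

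NCAPD2, the other HEAT-repeat subunit of condensin I, was at 106, 103 and 98.8 CPM in combination libraries, 194, 198 and 179 CPM in palbociclib, 372, 329.9 and 355 CPM in BLU9931 and 308.5, 291 and 308 CPM in control libraries. All 3 BLU9931 libraries were above all 3 control libraries, without passing the test (adjusted p = 0.253), and the drug groups with palbociclib were below both. The share of all genes so separated upward was not counted, and downward it was 16.3%. Its log2 change against control was -1.56 ± 0.08 in the combination (adjusted p = 2.74e-07) and -0.67 ± 0.08 with palbociclib (adjusted p = 0.000245). MRPL51, which overlaps NCAPD2 on the other strand, had log2 changes of -0.52 (adjusted p = 0.00302) and -0.46 (adjusted p = 0.00976) in the same comparisons.

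The condensin II subunits had log2 changes between -1.87 and -1.05 in the combination against control. NCAPD3, which overlaps VPS26B and JAM3 on the other strand, was at 231, 231 and 234 CPM in combination libraries, 310.1, 311 and 300.1 CPM in palbociclib, 506, 473 and 464 CPM in BLU9931 and 515, 462 and 465 CPM in control libraries. These replicates were the closest of the 10 genes in the combination, and the drug groups with palbociclib were separate from each other and from the controls. NCAPD3 had the smallest change of the 10 in the combination, -1.05 ± 0.08 on the log2 scale (2.07-fold lower, adjusted p = 1.67e-06), and -0.65 ± 0.07 with palbociclib (adjusted p = 0.000161). VPS26B and JAM3 did not pass the test in these comparisons, with log2 changes of -0.04 and 0.24 in the combination.

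NCAPG2 was at 35.8, 35.8 and 33.9 CPM in combination libraries, 60.5, 66.6 and 81.9 CPM in palbociclib, 124, 119.95 and 122 CPM in BLU9931 and 147, 119 and 119 CPM in control libraries. Its log2 change against control was -1.87 ± 0.13 in the combination (adjusted p = 1.59e-06) and -0.88 ± 0.13 with palbociclib (adjusted p = 0.000721). The kleisin NCAPH2 was at 16.2, 14.2 and 15.5 CPM in combination libraries, 22.5, 23.3 and 13.0 CPM in palbociclib, 42.8, 42.9 and 44.9 CPM in BLU9931 and 32.5, 43.9 and 45.2 CPM in control libraries. Palbociclib library 3 was below all combination libraries and control library 1 was the lowest control, the reverse of their place in TOP2A or SMC2. The log2 change of NCAPH2 against control was -1.41 ± 0.21 in the combination (adjusted p = 0.000369) and -1.05 ± 0.21 with palbociclib (adjusted p = 0.00421), the palbociclib change with an adjusted p of 0.0554 where only the palbociclib and control libraries were fitted.

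BLU9931 alone changed none of the 10 genes past the threshold, either in edgeR or in DESeq2. At an unadjusted p under 0.05 there were 2 of the 10, SMC2 (log2 change -0.52 ± 0.21, adjusted p = 0.273) and NCAPD2 (0.22 ± 0.08, adjusted p = 0.253), which lie in opposite directions, and 3347 of the 20612 genes tested. With the GC trend of each library taken out these changes were -0.25 and 0.13. With control library 1 and palbociclib library 3 left out they were -0.30 and 0.235. MKI67 averaged 1150 ± 60.3 CPM in BLU9931 cells and 1042 ± 66.9 CPM in control cells (SD, n = 3), and the 95% interval of its log2 change, 0.14, ran over -0.26 to 0.55. For NCAPD3 the interval was -0.16 to 0.16 around 0.00. The intervals of TOP2A (-0.48 to 0.21), SMC4 (-0.47 to 0.13), NCAPG2 (-0.35 to 0.20), NCAPH (-0.38 to 0.09) and NCAPH2 (-0.34 to 0.54) also include 0. NCAPG was at 103.4, 101.9 and 113.03 CPM in BLU9931 libraries, against 160.45, 125.64 and 116.08 CPM in control libraries, groups that do not overlap (as for 16.3% of all genes in that direction), and the interval of its log2 change, -0.34, reached just past 0 (-0.69 to 0.01, adjusted p = 0.322). Without control library 1, the highest, that change was -0.19. With the GC trend of each library taken out, the log2 changes of TOP2A (-0.13 as fitted), SMC4 (-0.17), NCAPG2 (-0.07) and NCAPH2 (0.10) changed sign to 0.11, 0.09, 0.11 and -0.28, so no direction is given for them.

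Added to palbociclib, BLU9931 lowered most of the genes further. Against palbociclib, 8 of the 10 were lower in the combination, where 2.91% of all genes tested were lower and 0.917% higher. CPM did not overlap for 9 of the 10, all but NCAPH2 (11.6% of all genes). The largest further falls were in MKI67 (log2 change -2.32 ± 0.19, 4.98-fold, adjusted p = 5.14e-05) and TOP2A (-2.16 ± 0.17, 4.46-fold, adjusted p = 2.62e-05). NCAPG and NCAPH of condensin I followed with -1.65 ± 0.17 and -1.43 ± 0.11, at adjusted p of 0.000158 and 2.62e-05. NCAPG2 (-0.99 ± 0.13, adjusted p = 0.00118), SMC4 (-0.90 ± 0.14, adjusted p = 0.00347) and NCAPD2 of condensin I (-0.89 ± 0.08, adjusted p = 0.000101) came next. NCAPD3 passed with the smallest change of the 8 (-0.40 ± 0.07, adjusted p = 0.0102), although its CPM did not overlap between the groups. Without combination library 1 or 2 its adjusted p was 0.0523 or 0.0511, and 0.0958 in a fit of these 2 groups only.

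SMC2 (-0.68 ± 0.21, adjusted p = 0.121) and NCAPH2 (-0.36 ± 0.21, adjusted p = 0.458) did not pass against palbociclib. In palbociclib library 3, SMC2 was above its group mates by 0.59 on the log2 scale and NCAPH2 differed from them by -0.82. Without palbociclib library 3, NCAPH2 changed by -0.59 with an adjusted p of 0.0463. With the GC trend taken out the changes were -0.57 for SMC2 (adjusted p = 0.00875) and -0.48 for NCAPH2 (adjusted p = 0.00624), and 10 of 10 genes then passed. Palbociclib added to BLU9931 lowered 10 of 10 (13.7% of all genes), all without overlap of CPM (25.3%), with log2 changes of -4.18 ± 0.21 for MKI67 to -1.05 ± 0.08 for NCAPD3.

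For 6 of the 10 genes the effect of both drugs was larger than the sum of the single effects on the log2 scale. This was tested as the interaction in the same fit, in which 1.31% of all genes were called lower and 0.281% higher. For MKI67 the combination gave -4.04, the single effects summed to -1.58, and the interaction was -2.46 ± 0.26 (adjusted p = 0.000739). TOP2A had -3.15 in the combination and a sum of -1.13 (interaction -2.02 ± 0.23, adjusted p = 0.000916). All 3 condensin I subunits were called: NCAPD2 with an interaction of -1.11 ± 0.12 (adjusted p = 0.000574), NCAPG with -1.31 ± 0.23 (adjusted p = 0.0157) and NCAPH with -1.29 ± 0.15 (adjusted p = 0.0013). Of the condensin II subunits NCAPG2 was called (-0.91 ± 0.18, adjusted p = 0.0304), but not in 8 of the 12 fits that left out a single library, those without control 2 or 3 or without any of the BLU9931 or combination libraries, where the adjusted p was 0.0586 to 0.0829.

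The remaining genes did not reach the threshold for the interaction. SMC4 had -0.72 ± 0.19 (adjusted p = 0.104), NCAPD3 -0.40 ± 0.11 (0.0942), NCAPH2 -0.46 ± 0.29 (0.514) and SMC2 -0.15 ± 0.30 (0.863). For SMC2 the combination gave -1.59 and the sum of the single effects was -1.43. SMC4 and NCAPD3 passed without control library 1 (adjusted p = 0.0331 and 0.0416), and NCAPD3 also passed without palbociclib library 3 (0.0426). With both libraries left out, 9 of 10 genes passed, and with the GC trend taken out 8 of 10.

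**Figure D2:**
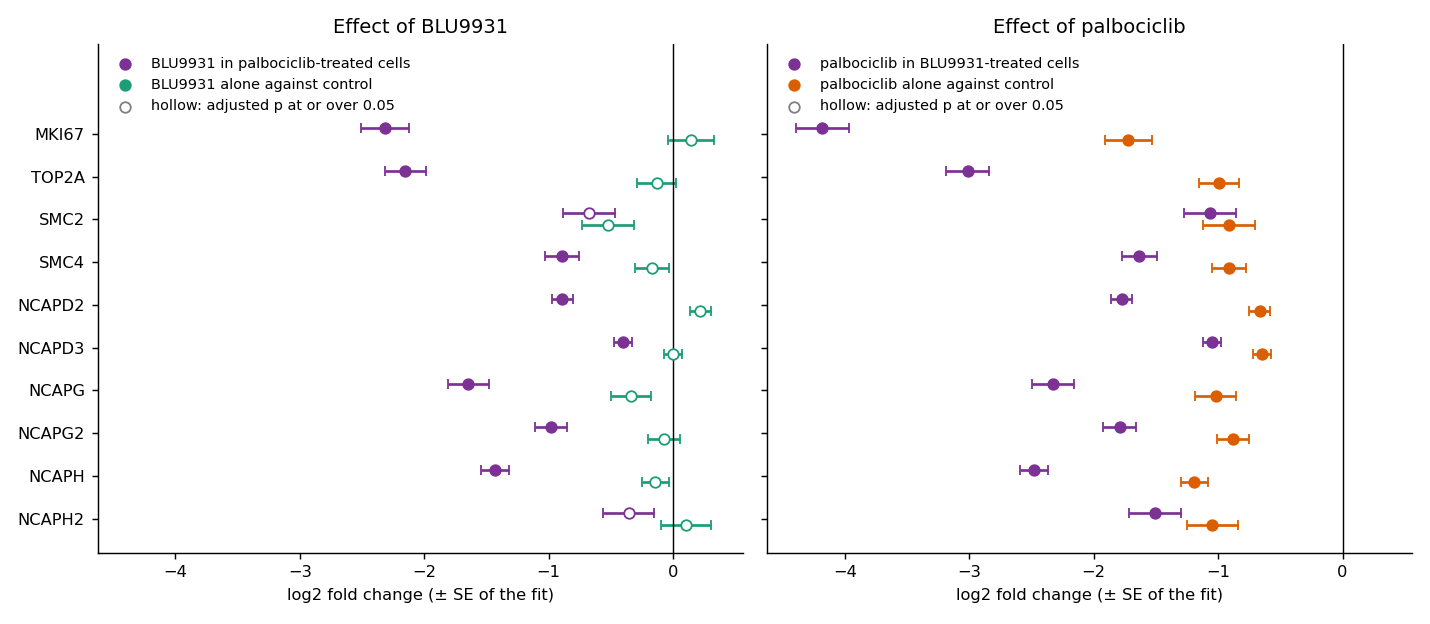
Log2 fold changes (horizontal axes, points with the SE of the fit) of the 10 genes for BLU9931 given with palbociclib or alone (left) and for palbociclib given with BLU9931 or alone (right); filled points have an adjusted p under 0.05. With BLU9931 alone all points are hollow and lie between -0.52 and 0.22, while in palbociclib-treated cells 8 of 10 are filled, down to -2.32 for MKI67.

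Condensin I and II subunits can be set against each other within a library through their counterparts. The median log2 change in the combination against control was -2.63 over NCAPD2, NCAPG and NCAPH and -1.41 over NCAPD3, NCAPG2 and NCAPH2, and with palbociclib it was -1.02 and -0.88. The value of -1.41 is that of NCAPH2, whose change was -1.715 with the GC trend of each library taken out. The subunits of the complexes also overlapped, as NCAPD2 (-1.56) fell less than NCAPG2 (-1.87) in the combination. As log2 ratios of TPM (with 0.1 added to each TPM), NCAPH over NCAPH2 was 0.46, 0.56 and 0.60 in combination libraries, 1.39, 1.24 and 2.12 in palbociclib, 1.34, 1.34 and 1.21 in BLU9931 and 2.22, 1.52 and 1.28 in control libraries. NCAPG over NCAPG2 averaged -0.95 ± 0.08 in the combination, -0.31 ± 0.05 in palbociclib, -0.50 ± 0.12 in BLU9931 and -0.19 ± 0.09 in control libraries (SD, n = 3). NCAPD2 over NCAPD3 averaged -1.05 ± 0.09 in the combination, -0.51 ± 0.17 in palbociclib, -0.32 ± 0.13 in BLU9931 and -0.55 ± 0.07 in control libraries. In all 3 ratios every combination library was below every library of the other groups.

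Each of those separations has an exact two-sided permutation p of 0.1, the smallest that 3 against 3 libraries allow, and 0.147 after adjustment over the 25 ratio tests. Palbociclib alone did not move NCAPD2 over NCAPD3 or NCAPH over NCAPH2 beyond the spread (differences from control of 0.05 and -0.09, exact permutation p = 0.7 for each), and palbociclib library 3 and control library 1 were the extremes of the NCAPH ratio. NCAPG over NCAPG2 was lower in every palbociclib library than in every control library (difference -0.12, exact permutation p = 0.1, adjusted 0.147), with a difference of -0.07 without control library 1. BLU9931 libraries were likewise separate from control libraries, lower in NCAPG over NCAPG2 (difference -0.32) and higher in NCAPD2 over NCAPD3 (0.23). Each had an exact permutation p of 0.1 (adjusted 0.147). For SMC4 over SMC2 the combination (2.75 ± 0.10) overlapped with palbociclib (2.94 ± 0.09) and control libraries (2.96 ± 0.15). It lay below all BLU9931 libraries (3.14 ± 0.18, exact permutation p = 0.1, adjusted 0.147).

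TOP2A parted from TOP2B, the topoisomerase II that resting cells also express. The log2 ratio of their TPM was -2.05, -2.15 and -2.03 in combination libraries, 0.15, 0.03 and 0.14 in palbociclib, 1.15, 1.37 and 1.61 in BLU9931 and 1.43, 1.197 and 1.42 in control libraries. TOP2B had the higher level of the pair in combination cells and the lower one in control cells. TOP2B itself averaged 265 ± 20.7 CPM in combination cells and 237 ± 49.6 CPM in control cells, with a log2 change of 0.16 ± 0.17 (adjusted p = 0.508).

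**Figure D3:**
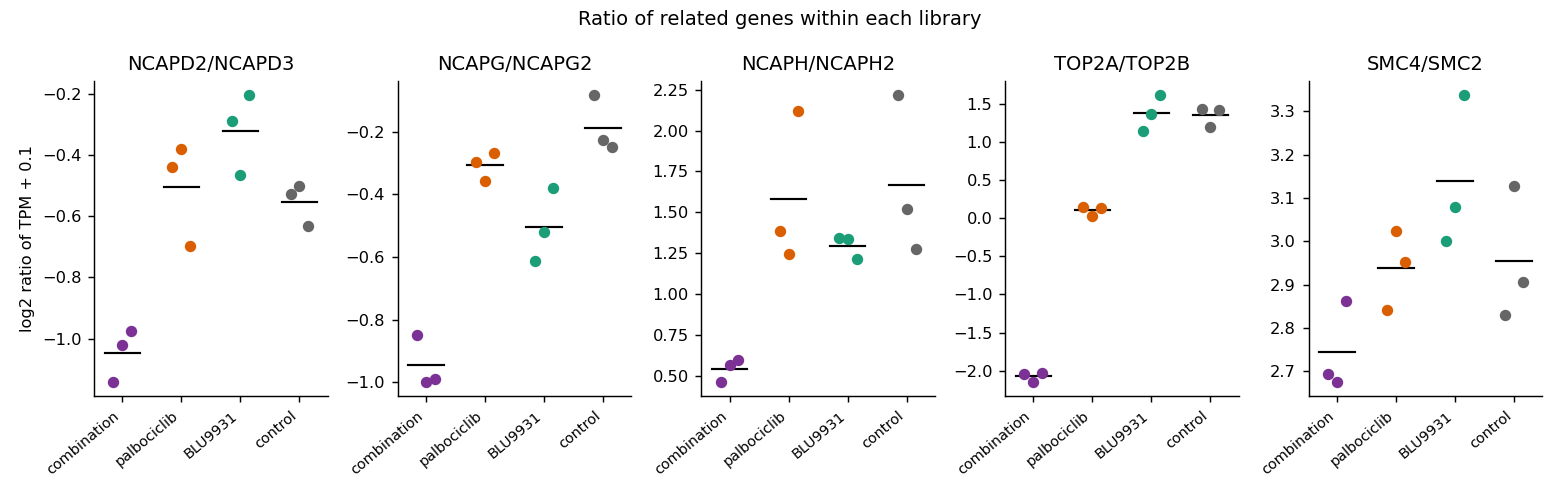
Log2 ratio of the TPM of related genes (vertical axes, 0.1 added to each TPM; the scale differs between panels) in each library, with the group mean as a bar. Combination libraries are lowest in the first 4 panels, and in the TOP2A/TOP2B panel they lie at -2.15 to -2.03, against 1.197 to 1.43 in control libraries.

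Other genes of chromosome structure, taken from 6 lists, moved in part with these 10. Against the 16.3% of all genes that were lower in the combination than in control, 6 of 7 genes of cohesion establishment and cleavage were lower, 10 of 13 of the chromosome periphery and Ki-67 partners, 7 of 10 condensin regulators and axis factors, 6 of 11 cohesin core and loader genes, 3 of 7 of the SMC5/6 complex and 1 of 5 other topoisomerases. No gene of these lists was higher. Their median log2 changes were -2.19, -0.97, -0.79, -0.59, -0.09 and -0.27 in that order, and 0.03 over all genes tested.

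Among the regulators, KIF4A, a chromosome-arm kinesin that binds condensin I, averaged 13.0 ± 1.297 CPM in combination cells and 120.2 ± 9.86 CPM in control cells (log2 change -3.21 ± 0.12, adjusted p = 3.11e-08). The mitotic kinases AURKB (-3.43 ± 0.21, adjusted p = 5.26e-07) and PLK1 (-2.66 ± 0.14, adjusted p = 2.73e-07), which phosphorylate condensin subunits, fell as well. Of the genes of cohesion, the separase inhibitor PTTG1 (-3.16 ± 0.12), the separase ESPL1 (-2.78 ± 0.20) and sororin, CDCA5 (-1.72 ± 0.13), fell, while HDAC8, the deacetylase of SMC3, had 0.19 ± 0.18 (adjusted p = 0.434). These 6 genes that fell were also the 6 list genes with a negative interaction past the threshold, from -0.91 for CDCA5 to -2.77 for AURKB. Of the cohesin ring and its partners, SMC1A (-1.23 ± 0.09), STAG1 (-1.33 ± 0.15) and RAD21 (-1.09 ± 0.15) fell.

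Ki-67 partners were divided. CDCA2 (Repo-Man, a phosphatase partner on chromatin; -1.95 ± 0.15, adjusted p = 2.35e-06), CBX5 (heterochromatin protein HP1α; -2.003 ± 0.15, adjusted p = 1.92e-06) and the nucleolar NOP56 (-1.02 ± 0.08, adjusted p = 3.2e-06) fell in the combination. NIFK, which binds the FHA domain of Ki-67, averaged 47.8 ± 8.83 CPM in combination cells and 50.8 ± 16.0 CPM in control cells (log2 change -0.09, adjusted p = 0.807). PPP1CA (-0.06, adjusted p = 0.888) and PES1 (-0.30, adjusted p = 0.304) also missed the threshold. In the SMC5/6 complex SMC5 (-0.92), SMC6 (-0.85) and NSMCE4A (-0.73) were lower, and the 4 other subunits had changes between -0.09 and 0.08. In the combination TOP3A was the topoisomerase that fell besides TOP2A (-1.11 ± 0.12, adjusted p = 2.86e-05). With palbociclib alone both TOP3A (-0.62 ± 0.11, adjusted p = 0.00286) and TOP1 (-0.40 ± 0.11, adjusted p = 0.0265) were lower than in control cells.

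**Figure D4:**
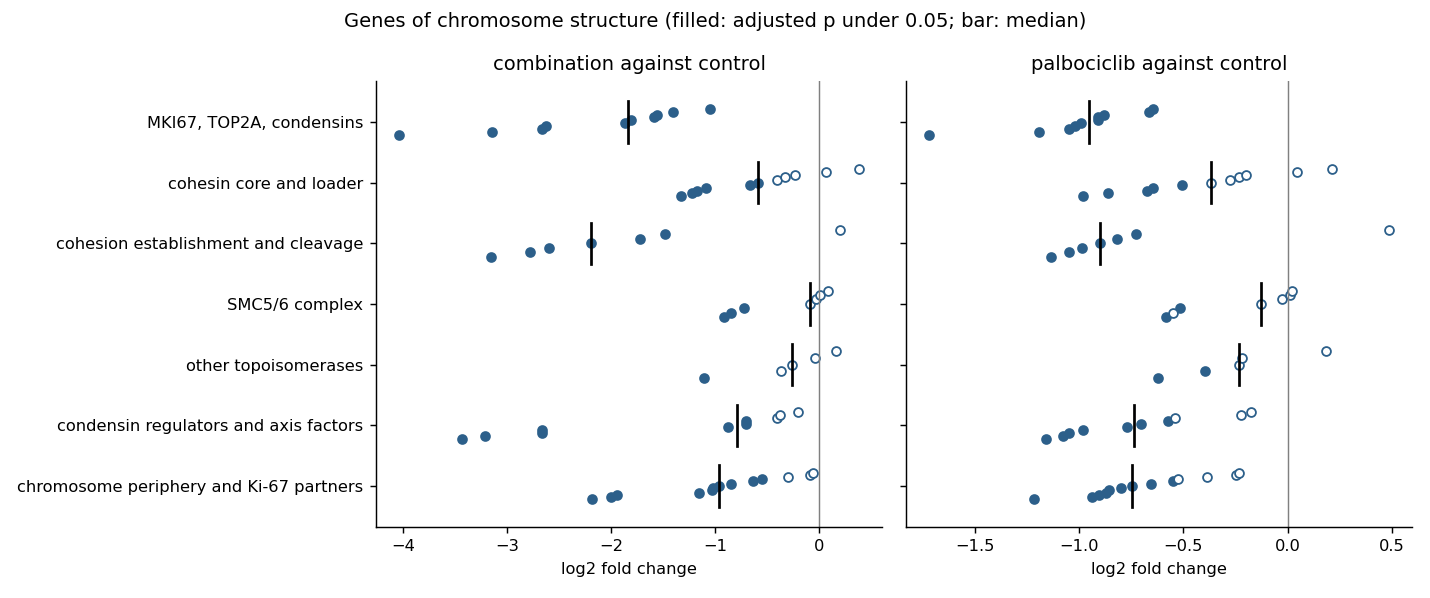
Log2 fold changes (horizontal axes; the scales differ) of the 10 genes and of 6 lists of chromosome-structure genes in the combination (left) and with palbociclib (right), each against control; a point is a gene, filled where its adjusted p is under 0.05, and a bar is the median. The SMC5/6 and topoisomerase lists sit near 0 with medians of -0.09 and -0.27 in the combination, against -1.84 for the 10 genes.

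The profile of MKI67 over the 12 libraries was closest to that of MYBL2. The measure was the root mean square difference of log2 CPM, each gene centred on its control mean, over the 10879 protein-coding genes that averaged 5 CPM or more. MYBL2, a transcription factor of the mitotic programme, differed from MKI67 by 0.24, the mitotic kinesin KIF20A by 0.27, E2F7 by 0.39, IQGAP3 by 0.41 and E2F8 by 0.46. Their log2 changes in the combination against control lay between -4.01 for KIF20A and -3.53 for E2F7. The mean profile of NCAPD2, NCAPG and NCAPH was closest to CCNB2 (0.07), PRC1 (0.08), TPX2 (0.09), BUB1 (0.10) and CHAF1B (0.11). These differences are much smaller than those to MKI67's neighbours, and a mean over 3 genes varies less than a single gene.

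The 10 genes differ in GC content, from 37.3% in SMC4 to 62.2% in NCAPH2, and this ordered their place in the libraries that stood apart. In palbociclib library 3 the log2 CPM of SMC2, NCAPG, TOP2A, SMC4 and NCAPG2 (GC of 41.4% or less) exceeded the mean of the other palbociclib libraries by 0.59, 0.47, 0.47, 0.45 and 0.37, while NCAPH2 was below it by a difference of -0.82. In control library 1 the same 5 genes lay 0.57, 0.41, 0.53, 0.38 and 0.31 above their mates, and NCAPH2 differed by -0.45. With a per-library trend on GC content removed, the deviations of the 5 genes in palbociclib library 3 lay between -0.11 and 0.03 and that of NCAPH2 was 0.05. In control library 1 the removal overshot for NCAPH2 and took NCAPD2 further from 0. The 5 genes there lay between -0.05 and 0.16, NCAPH2 moved to the other side of 0 (0.24), and NCAPD2 went from 0.04 to 0.17. MKI67 (48.3% GC) deviated by -0.26 in palbociclib library 3 and by -0.29 with the trend removed. In the other libraries the largest deviation was that of MKI67 in combination library 2, -0.84.

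**Figure D5:**
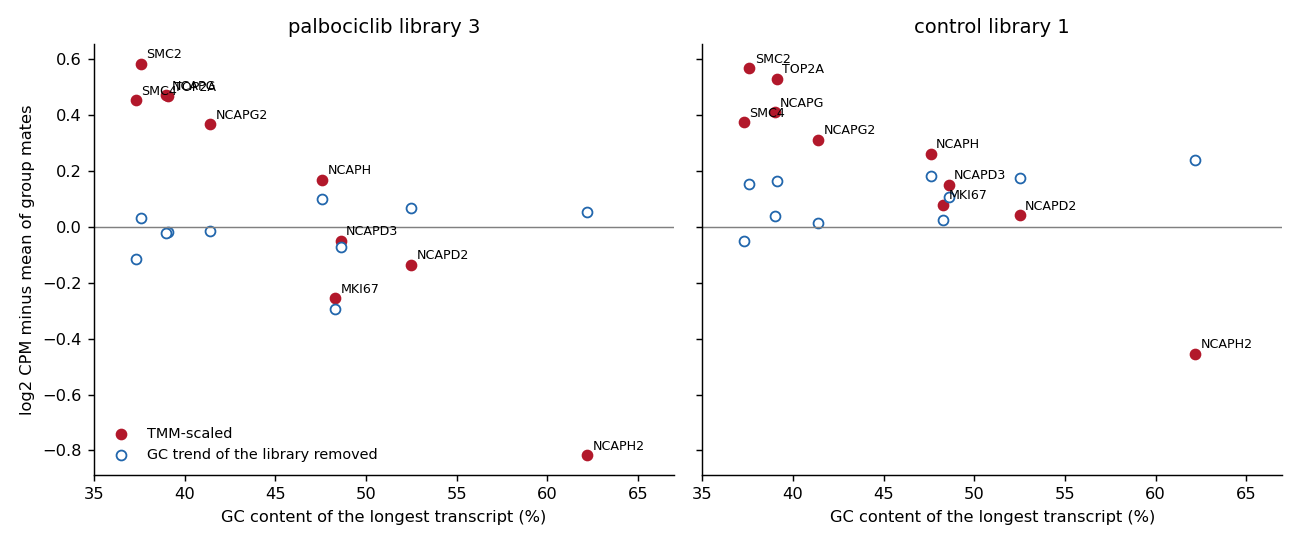
Deviation of each gene's log2 CPM from the mean of its group mates (vertical axis) in palbociclib library 3 and control library 1, against the GC content of its longest transcript (horizontal axis, %), before (filled) and after (hollow) removal of the library's GC trend. Filled points decline from 0.59 (SMC2) to -0.82 (NCAPH2) in palbociclib library 3, and hollow points there lie between -0.29 and 0.10. In control library 1 hollow points lie between -0.05 (SMC4) and 0.24 (NCAPH2).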

How the data were processed

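RNA of 12 libraries of H520 cells was analysed, 3 in each of 4 groups, grouped by their titles. The deposited table has columns of counts, TPM and FPKM for each library. Its counts, so called per the file headers, are whole numbers, and how they were made is not given in the sources used here. TPM per the file headers sums to 999907 to 999944 in a library, and FPKM is likewise labelled per the file headers. Tools listed in the submitters' processing notes are Trimmomatic 0.36, HISAT2 2.0, StringTie 1.3.3b and bedtools 2.26.0, with no role, and a mouse build. Of the 58174 human gene IDs, 57836 occur in GENCODE 29, 56033 of them with identical start and end, so positions are on GRCh38. The strand setting and the counting tool are not given in the sources used here. Per-library length corrections differ, since count over FPKM varied between libraries by 1.06 times (TOP2A) to 1.28 times (NCAPD2). The 5 annotated pseudogene copies of the 10 genes held at most 168 counts in any library. NCAPGP1 held 76 to 168 counts over the 12 libraries, where NCAPG itself had 514 to 620 counts in combination libraries. The other copies held at most 4 counts.

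Counts were tested in R 4.3.3 with edgeR 4.0.16: filterByExpr over the 4 groups left 20612 genes (14580 protein-coding), TMM scaling, a robust glmQLFit (common dispersion 0.0518, 8 residual degrees of freedom) and a two-sided glmQLFTest, adjusted over all genes tested. Intervals of log2 changes use the t distribution with the fit's total degrees of freedom per gene. Replicates differed far beyond counting error (chi-square per degree of freedom 17.6 to 86.1), so no libraries were merged. Same-numbered libraries did not deviate together (r of -0.364 to 0.168 over 18 pairs, 3 over 0.1), so the numbers were not used as a block. TPM was used for levels between genes and for ratios, and TMM-scaled CPM for levels between groups. Ratios were compared with exact permutation tests in scipy 1.17.1. Alternatives used DESeq2 1.42.0, limma 3.58.1 on TPM and FPKM, other scalings and filters, a GC offset over the 20531 tested genes with a GC value, and libraries left out. The code was tested on simulated data, and plots were drawn with matplotlib 3.10.9. The 10 genes and the lists were chosen with earlier results of these data known. All 10 genes are named. From each list up to 3 genes are named, those with the smallest adjusted p in the combination against control, beside the exceptions. Promoter sequences are RefSeq's. A comparison of the proteins was planned and not made here. One further marker gene chosen for the neuroendocrine list is not reported here and is not in its sum.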

Additional observations from a re-analysis of the deposited data

Results flagged for a closer look

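The effect of BLU9931 differed with palbociclib present and absent for 6 genes, by the test of the interaction in edgeR (adjusted p under 0.05 over all genes tested, where 1.31% were lower). The log2 interaction was -2.46 for MKI67, -2.02 for TOP2A, -1.31 for NCAPG, -1.29 for NCAPH, -1.11 for NCAPD2 and -0.91 for NCAPG2. In MKI67 the further fall in palbociclib-treated cells was -2.32 ± 0.19, and BLU9931 alone gave 0.14 ± 0.18. In NCAPD2 the same pair of changes was -0.89 ± 0.08 and 0.22 ± 0.08. Both pairs lie on opposite sides of 0, but the changes with BLU9931 alone did not pass the test (adjusted p = 0.702 for MKI67 and 0.253 for NCAPD2). NCAPG2 lay nearest to the threshold.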

How the results depend on the processing

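Under 24 alternatives (23 for the interaction), 10 of 10 genes remained lower in the combination against control and against BLU9931. All directions held outside BLU9931 against control, except the interaction of SMC2, which ran from -0.397 to 0.068 (0.068 without palbociclib library 3). Palbociclib against control lost SMC2 and NCAPH2 in the fit of the compared groups only. Leaving out a single library gave 7 to 9 genes for the combination against palbociclib and 5 to 8 for the interaction. With the replicate block, which the numbers do not justify, the interaction called 4 of 10 genes (NCAPG at an adjusted p of 0.0519 and NCAPG2 at 0.102 were lost), and the other counts of the 10 genes were within 1.5 times of those reported.

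In BLU9931 against control, TOP2A was 0.069, NCAPG2 0.041 and NCAPH2 -0.032 with palbociclib 3 and control 1 left out, and TOP2A was 0.107, SMC4 0.086, NCAPG2 0.114 and NCAPH2 -0.280 with the GC trend removed. NCAPG2 was 0.036 by limma on TPM with 1 or 0.1 added and 0.065 on FPKM. Without a single library, TOP2A ran from -0.207 to 0.066, NCAPG2 from -0.109 to 0.038 and NCAPH2 from -0.034 to 0.202. NCAPD3, at 0.00, was given no direction. The difference in log2 ratio of palbociclib from control changed sign for NCAPD2 over NCAPD3 (-0.022 by counts, and -0.015 to 0.145 without a single library), NCAPH over NCAPH2 (-0.356 to 0.187) and SMC4 over SMC2 (-0.078 to 0.070), as did that of BLU9931 from control for TOP2A over TOP2B (-0.088 to 0.144).

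Counts over all genes moved more. Palbociclib against control called 4236 genes, 7144 with the GC offset and 1839 with the compared groups only. BLU9931 against control called 37, but 17 with no filter, 71 with 1 CPM in 3 libraries, 590 in DESeq2, 22 by limma on TPM + 1, 2 with the block, 553 without palbociclib 3 and control 1, 733 with the GC offset, 6 with the compared groups, and 1 to 396 (without palbociclib 3) when a single library was left out. The combination against palbociclib called 788, then 1316 (DESeq2), 483 (block), 2043 (both left out), 2277 (GC), 297 (compared groups) and 438 to 945 (single library). The combination against BLU9931 called 5572, 8685 with both left out and 8457 with the GC offset. The interaction called 328, then 838 (DESeq2), 142 (block), 2117 (both left out), 1718 (GC) and 148 to 986 (single library). Causes were not tested. With library totals the median change of all genes in the combination against control was 0.11. With 3 libraries a group, changes within these spreads were not detectable.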

Other observations

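The TPM and FPKM values of MKI67 carry a gene length that differed between groups. Count over FPKM, scaled to the library total, implied 12530 to 14470 bases in combination libraries, 13620 to 15140 in palbociclib, 15180 to 15370 in BLU9931 and 15030 to 15420 in control libraries, values of which all but the lowest lie above the longest annotated transcript (12678 bases) and that are of use only between libraries. The combination mean of MKI67 was 6.96% of the control mean in TPM and 6.09% in CPM. For TOP2A the implied length varied by 1.06 times over the 12 libraries and for NCAPH by 1.13 times. MKI67 was not alone in this. NCAPG had 4894 to 5032 bases in combination and 5026 to 5226 in palbociclib libraries, all below its control libraries (5286 to 5423). NCAPH2 had 2116 to 2226 bases in combination libraries, above its control libraries (1922 to 2085). The ratios of TPM that use these genes carry such lengths.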
